A study of Mus musculus with 10 samples.

Results

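The regions described here are 176 of the 967 regions with a SOX15 peak in at least 1 library of mouse embryonic stem cells. They are those whose summit lay within 1 kb of the annotated start or end of a protein-coding gene. The summit also lay over 1 kb from every clustered histone gene and every small nuclear RNA (snRNA) gene. Starts and ends together are called gene boundaries below. The study mapped the transcription factors SOX15 and SOX2 by chromatin immunoprecipitation and sequencing (ChIP-seq), with 3 ChIP libraries labelled Sox15-HA and 2 labelled Sox2-HA, HA being a short epitope tag. Cells of every group were kept in 2i/LIF medium, which maintains naive pluripotency, and were fixed with 1% formaldehyde for 5 min. Input libraries, 3 for SOX15 and 2 for SOX2, were labelled as carrying no antibody and have no peak list of their own here. The labels give neither the line or clone, the promoter that drove the tagged proteins, nor whether replicates were separate cultures, so the spread between replicates may be technical.

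The measurement was the authors' list of peaks for each ChIP library, with a fold enrichment at each summit. SOX15 peaks of the 3 libraries that shared at least 1 bp were merged into regions, and each region took the summit of its highest-ranked peak. SOX15 peaks and their folds chose the members, so SOX15 calls are given as a description without a test. SOX2 peaks, the side of the gene and the promoter sequence played no part in the choice. Of the other SOX15 regions, 99 lay at histone or snRNA genes and 692 lay away from gene boundaries.

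SOX15 and SOX2 belong to the SOX family, whose members bind short AT-rich sites in the minor groove of DNA through a shared HMG box. SOX2 pairs with OCT4 at enhancers of pluripotency genes in embryonic stem cells. Gene boundaries are the sites where RNA polymerase II is loaded, pauses, and is released after the transcript is cleaved.

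Of the members, 20 had their summit inside a promoter window of the RefSeq reference (assembly GRCm38.p6, the mm10 build), which runs from 250 bases before to 50 bases after a start. The 5 windows printed next are those whose member was called in at least 2 SOX15 libraries (Csrnp2, Dapk3, Txnip), 1 ribosomal protein gene (Rps9) and 1 pluripotency gene (Klf2). Capitals mark 21 bases centred on the SOX15 summit, cut where the window stops.
Csrnp2 promoter, chr15:100495190-100495489, minus strand: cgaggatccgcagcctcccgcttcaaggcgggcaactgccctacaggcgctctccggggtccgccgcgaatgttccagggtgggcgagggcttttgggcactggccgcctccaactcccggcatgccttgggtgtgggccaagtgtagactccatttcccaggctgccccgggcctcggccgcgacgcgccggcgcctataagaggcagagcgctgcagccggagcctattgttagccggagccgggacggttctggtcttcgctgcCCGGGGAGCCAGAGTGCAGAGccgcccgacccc
Dapk3 promoter, chr10:81182757-81183056, plus strand: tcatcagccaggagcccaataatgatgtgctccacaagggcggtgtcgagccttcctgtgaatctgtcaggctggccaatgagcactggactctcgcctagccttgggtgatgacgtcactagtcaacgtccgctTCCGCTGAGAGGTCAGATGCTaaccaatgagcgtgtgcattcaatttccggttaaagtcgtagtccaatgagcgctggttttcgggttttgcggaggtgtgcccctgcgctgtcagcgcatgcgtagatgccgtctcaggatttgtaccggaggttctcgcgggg
Txnip promoter, chr3:96557707-96558006, plus strand: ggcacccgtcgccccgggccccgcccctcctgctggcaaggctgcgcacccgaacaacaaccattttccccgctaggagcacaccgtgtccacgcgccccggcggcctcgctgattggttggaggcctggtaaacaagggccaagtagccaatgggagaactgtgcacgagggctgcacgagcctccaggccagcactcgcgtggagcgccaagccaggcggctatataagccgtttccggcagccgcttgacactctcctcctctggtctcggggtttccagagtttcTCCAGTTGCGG
Rps9 promoter, chr7:3703791-3704090, plus strand: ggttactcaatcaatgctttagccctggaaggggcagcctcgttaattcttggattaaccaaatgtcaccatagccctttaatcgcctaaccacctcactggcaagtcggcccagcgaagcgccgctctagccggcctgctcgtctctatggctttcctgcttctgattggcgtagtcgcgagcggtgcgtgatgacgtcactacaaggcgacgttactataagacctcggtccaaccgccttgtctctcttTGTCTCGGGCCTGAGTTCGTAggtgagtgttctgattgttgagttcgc
Klf2 promoter, chr8:72318812-72319111, plus strand: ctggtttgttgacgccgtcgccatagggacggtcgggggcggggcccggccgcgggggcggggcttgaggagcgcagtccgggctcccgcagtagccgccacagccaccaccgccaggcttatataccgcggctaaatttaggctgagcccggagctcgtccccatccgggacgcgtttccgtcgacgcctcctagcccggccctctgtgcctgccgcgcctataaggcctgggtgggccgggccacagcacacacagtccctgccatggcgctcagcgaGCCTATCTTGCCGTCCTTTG
The Csrnp2 window held the SOX motif ACAATA within 50 bp of the summit, and the Rps9 window held the SOX motif ACAAAG at that distance. At Dapk3, Txnip and Klf2 the window held none of the 3 SOX motifs searched on both strands, those just given and the classical site ACAATG, and all of these windows except that of Rps9 held the GC box GGGCGG. Among the 20 windows, 9 held a SOX motif and 7 held it within 50 bp of the summit.

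Another set of members lay at clusters of microRNA genes, and mature products of these clusters are printed to show their seeds, the bases that pair with target messages. Capitals mark bases 2 to 8.
miR-290a-5p: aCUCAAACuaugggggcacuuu
miR-292a-5p: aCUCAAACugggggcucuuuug
miR-293-5p: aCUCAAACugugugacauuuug
miR-290a-3p: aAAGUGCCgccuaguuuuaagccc
miR-291b-3p: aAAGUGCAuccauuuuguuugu
miR-93-5p: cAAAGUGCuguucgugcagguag
miR-106b-5p: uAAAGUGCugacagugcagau
The first 3 share the seed CUCAAAC, and miR-93-5p and miR-106b-5p share AAAGUGC. The seeds of miR-290a-3p (AAGUGCC) and miR-291b-3p (AAGUGCA) differ in base 8 alone. The miR-290 cluster on chromosome 7 encodes the most characteristic microRNAs of mouse embryonic stem cells, and Mir93, Mir106b and Mir25 lie inside Mcm7, which encodes a subunit of the replicative helicase.

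Peaks at gene boundaries took a larger share of each SOX15 list than of each SOX2 list. In SOX15 these were 38 of 217 peaks (17.5%, 95% Wilson interval 13.0 to 23.1) in replicate 1, 115 of 672 (17.1%, 14.5 to 20.1) in replicate 2 and 99 of 437 (22.7%, 19.0 to 26.8) in replicate 3. SOX2 had 147 of 2676 (5.49%) in replicate 1 and 216 of 4817 (4.48%) in replicate 2. The means were 19.1% ± 3.09 (SD, n = 3) and 4.99% ± 0.714 (SD, n = 2), a difference of 14.1 percentage points, with every SOX15 library above both SOX2 libraries. The rule chose the members by this distance, so the difference is a description and no test of it is given. When peaks at histone and snRNA genes were taken out of the totals, the shares were 31.1%, 19.8% and 27.7% for SOX15 and 5.67% and 4.54% for SOX2. The intervals cover counting error only, since peaks of 1 library are not independent replicates. Sequencing depth is unknown because the lists carry no counts of reads, and loci lacking a peak can have enrichment under the caller's threshold. The smallest −log10 q in the SOX15 lists was 2.76, 2.03 and 1.31 in replicates 1, 2 and 3, and 2.10 and 2.20 in the SOX2 lists.

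Most members were called in 1 SOX15 library. Replicate 1 had a peak on 38 members, replicate 2 on 111 and replicate 3 on 95. Of the members, 20 (11.4%) were called in 3 libraries, 28 in 2 and 128 in 1. Replicate 2 alone called 65, replicate 3 alone 56 and replicate 1 alone 7. Calls in at least 2 libraries covered 48 members (27.3%), against 200 of all 967 regions (20.7%). Members called in 3 libraries had a median width of 1317 bp, against 257 bp for those called in 1. A region spans all its merged peaks, so its width tends to grow with the number of libraries by construction.

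The SOX15 folds of the members were modest. In replicate 1 they ran from 3.74 through a median of 6.28 to 52.6. Replicate 2 gave 2.24, 5.41 and 56.0 for the lowest, median and highest, and replicate 3 gave 3.55, 5.92 and 55.4. By percentile rank of fold within each list, where 100 is the highest, the medians over members were 28.5, 53.0 and 38.2, beside 52.5, 50.1 and 50.7 over all SOX15 regions.

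The highest fold of any member, in each SOX15 library, belonged to a region 324 bp beyond the annotated end of Tmem107 (chr11:69073158-69074043), which encodes a protein of the ciliary transition zone. It reached 52.6, 56.0 and 55.4 in SOX15 replicates 1, 2 and 3, and 28.5 and 13.2 in the SOX2 libraries. Its summit lay 55 bp from Snord118, the gene of the U8 small nucleolar RNA (snoRNA), which acts in the maturation of large-subunit ribosomal RNA. The next region lay 486 bp outside Tti2 (chr8:31149432-31150132), a gene for a co-chaperone of PIKK kinases, and 31 bp from Snord13. It had folds of 22.8, 14.6 and 18.5 for SOX15 and 11.2 and 5.46 for SOX2. These folds stand well above the median of the members in each SOX15 library.

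Below these, the members called in 3 SOX15 libraries had mean percentile ranks from 31.1 to 84.3. Slc35b2, which encodes a Golgi transporter of the sulfate donor PAPS, had SOX15 folds of 13.1, 13.0 and 11.9 at a summit 998 bp inside its 3′ end. Ftl1, the ferritin light chain gene, had 8.92, 13.4 and 11.8, with its summit 610 bp beyond the 3′ end. The lysosomal membrane protein gene Mfsd12 had 12.3, 16.5 and 7.09, and the ubiquitin ligase gene Trim41 had 7.63, 14.7 and 12.9. Polr2a, which encodes the largest subunit of RNA polymerase II, had 8.35, 17.6 and 9.37 at a summit 74 bp inside its start (chr11:69758184-69758845). At Chmp2a, a gene of the ESCRT-III membrane remodelling complex, replicate 2 stood apart with 21.1, against 5.94 and 7.35. The mitochondrial tRNA modification gene Mto1 had 13.5, 6.71 and 5.11. At the immediate early gene Ier2 the folds were 4.83, 9.37 and 6.95. Taf1d, which encodes a subunit of the RNA polymerase I selectivity factor, had 6.26, 6.12 and 6.66. Within their lists these folds had percentile ranks of 28.1, 64.9 and 56.8. Zfp513, a zinc finger gene, had 5.47, 8.61 and 5.97.

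**Figure D1:**
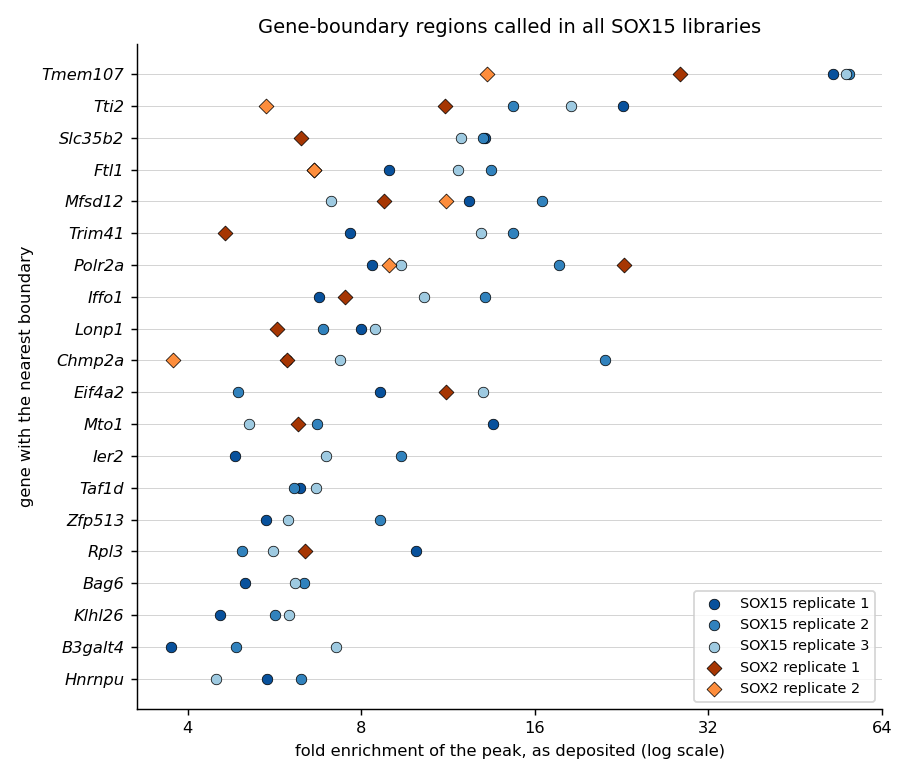
Fold enrichment of the peak at each of the 20 gene-boundary regions called in all 3 SOX15 libraries, 1 point per library, on a log axis, in order of mean rank. Tmem107 stands apart with SOX15 folds of 52.6, 56.0 and 55.4, and SOX2 points, from 2 libraries, are missing at regions without a SOX2 peak. The SOX2 points at Ftl1 nearly coincide, and folds are comparable only within a library.

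Some members lay close together. The 176 members had 155 distinct nearest genes, and 51 members (29.0%) had another member within 5 kb. Hmgn2, which encodes a nucleosome-binding protein, Nlrp12 and the TEAD-family gene Tead3 were nearest to 3 members each. Chromosome 11 held 31 members (17.6%, against 11.0% of all SOX15 regions), chromosome 17 held 20 (11.4%, against 6.0%), and chromosome X held 0. The genes nearest to members had a median length of 9470 bp, against 17330 bp over all protein-coding genes. At the distance limit, the members just inside were at Slc35b2 (998 bp), Zfp42 (991 bp) and Erbb3 (980 bp). Just outside were regions at Mettl23 (1013 bp, called in 2 SOX15 libraries), Atf4 (1015 bp) and Yars (1022 bp). The symbols used for histone genes did not cover H2ax and H4f16, which were nearest to 2 and 1 of the members.

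Where the strand was known, the members were split between starts and 3′ ends, while SOX2 regions chosen by the same distance rule lay mainly at starts. Strand came from the promoter reference, which orients 79.9% of the 21627 protein-coding genes and 140 of the 176 members. Of those, 68 (48.6%, interval 40.4 to 56.8) were nearest to a start and 72 (51.4%) to a 3′ end. SOX2 had 257 regions at gene boundaries, and of the 199 oriented ones 138 (69.3%, 62.6 to 75.3) were nearest to a start. Members called in 3 SOX15 libraries had 4 starts and 12 ends among 16 oriented ones. Library by library, starts made up 34.6%, 50% and 43.4% of the boundary peaks for SOX15, and 65.0% and 70% for SOX2. The SOX15 mean of 42.7% ± 7.72 (SD, n = 3) lay below the SOX2 mean of 67.5% ± 3.57 (SD, n = 2), without overlap. An exact two-sided permutation test over the libraries gave p = 0.1, the smallest that 3 against 2 libraries allow, so no comparison of these groups can pass the usual threshold.

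At starts, SOX15 summits lay mostly within the annotated gene. Of the 68 start members, 51 (75%) lay inside the gene, at a median of 99 bp past the start. Of the 138 SOX2 start regions, 59 (42.8%) lay inside, with a median 93.5 bp upstream of the start. The share inside was 66.7%, 76.6% and 69.7% for SOX15, beside 48.7% and 37.0% for SOX2 (exact permutation p = 0.1). Positions of both factors were measured from a single annotated start per gene, and a gene can have other promoter starts. Measured from the start of its promoter window, the Srsf2 summit moved from 601 to 20 bp past the start. The Dis3l summit moved from 456 bp past it to −174 bp, which is upstream. How the shares would change with other starts was not tested. At 3′ ends no such gap was seen: 39 of 72 members (54.2%) and 33 of 61 SOX2 regions (54.1%) lay downstream, and the library means differed by −0.708 percentage points (SOX15 minus SOX2, exact permutation p = 0.8).

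**Figure D2:**
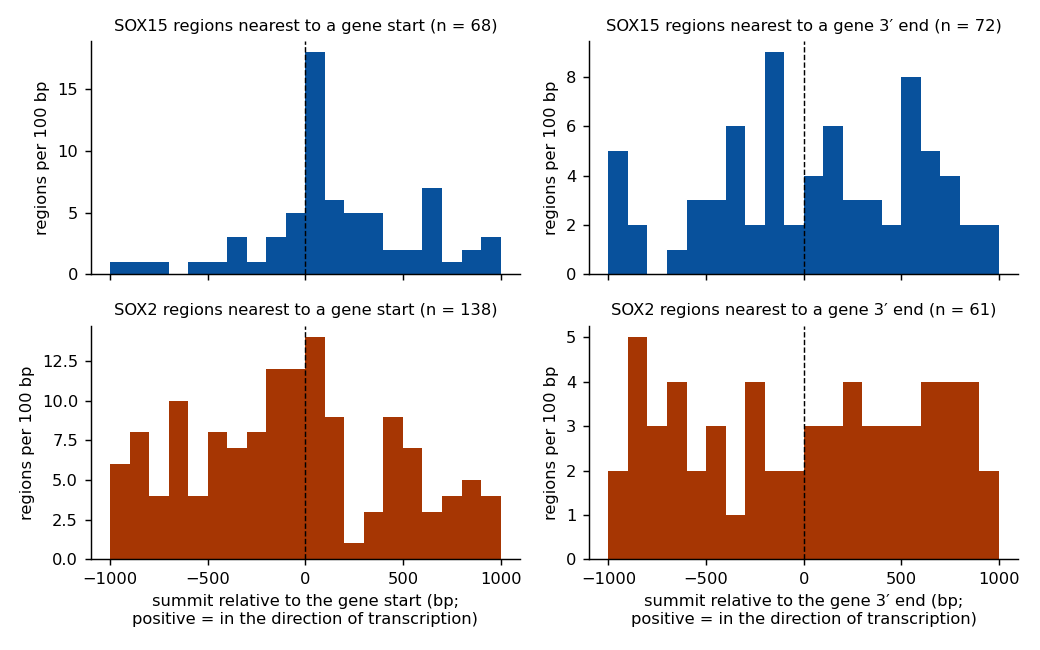
Distance of the summit from the nearest gene start or 3′ end, in bp along the gene, for oriented SOX15 members (top) and SOX2 regions chosen by the same distance rule (bottom), at starts (left) and 3′ ends (right); bars count regions per 100 bp, and each panel has its own count axis. SOX15 start members peak just inside the gene, with a median 99 bp past the start, and the SOX2 median is 93.5 bp upstream. A single annotated start per gene is used, and other promoter starts of a gene are not shown.

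Many members lay where genes crowd together. Of the 176 members, 53 (30.1%) were within 1 kb of boundaries of at least 2 genes, against 29 of 257 SOX2 regions (11.3%). The library shares were 44.7%, 29.6% and 32.3% for SOX15 and 14.3% and 7.87% for SOX2, again without overlap. They use the distance by which the rule chose the members, so they are a description and no test is given. Examples are the region nearest to Iffo1, which also lay 607 bp from Gapdh, and the region nearest to Lonp1, which encodes a mitochondrial protease and lay beside Rpl36. For such members the data do not tell which gene the peak belongs to.

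SOX2 peaks were read on the same regions as a measure that the rule had not used. A peak in at least 1 SOX2 library overlapped 43 members (24.4%, interval 18.7 to 31.3), against 29.6% of all SOX15 regions. Peaks in both SOX2 libraries overlapped 13 members (7.39%), against 19.5% of all. SOX2 replicate 1 had a peak on 42 members (23.9%, against 28.3%), and replicate 2 on 14 (7.95%, 4.80 to 12.9, against 20.8%). The share in replicate 2, the longer SOX2 list, was also below that of the SOX15 regions away from boundaries (19.5%), while replicate 1 gave nearly the same share there (23.0%). At histone or snRNA genes 74.7% of the regions had a SOX2 peak. The SOX2 shares therefore rest on which SOX2 library is read.

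The share with a SOX2 peak was higher for members called in more SOX15 libraries. It was 13 of 20 (65%) for members called in 3, 13 of 28 in 2 (46.4%), and 17 of 128 in 1 (13.3%). All SOX15 regions showed the same order for at least 1 SOX2 library. The shares were 101 of 120 (84.2%) in 3, 31 of 80 (38.8%) in 2 and 154 of 767 (20.1%) in 1. In SOX2 replicate 2 read by itself, members kept this order (6 of 20, 4 of 28 and 4 of 128). All SOX15 regions did not, with 67 of 120 (55.8%) in 3, 9 of 80 (11.25%) in 2 and 125 of 767 (16.3%) in 1. Members called by replicate 3 alone carried a SOX2 peak in 8 of 56 cases (14.3%), whereas regions away from boundaries called by replicate 3 alone did in 121 of 197 (61.4%). For replicate 2 alone the order was the other way, with 7 of 65 members (10.8%) and 8 of 401 regions away from boundaries (2.00%). Start members carried a SOX2 peak in 22 of 68 cases (32.4%) and 3′ end members in 12 of 72 (16.7%). Regions are not replicates, so these shares are descriptions. Members called in 3 libraries were also wider than those called in 1 (medians 1317 and 257 bp), and a wider region can meet a SOX2 peak more readily. The part of width in this order was not tested. With a SOX2 summit required within 200 bp of the region's summit, the share over all members was 19.9%.

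**Figure D3:**
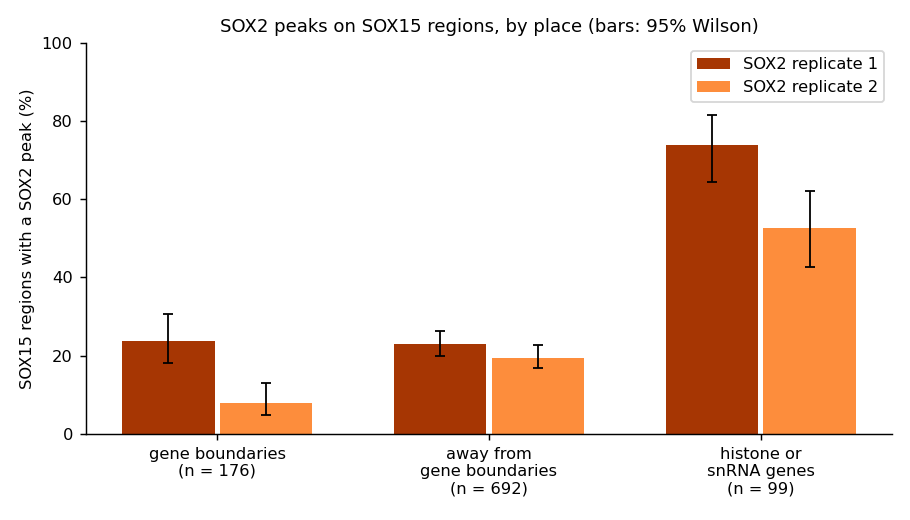
Percentage of SOX15 regions that overlap a SOX2 peak, by SOX2 library, for gene boundaries, regions away from boundaries, and histone or snRNA genes; error bars are 95% Wilson intervals over regions. Gene boundaries had 23.9% in SOX2 replicate 1 and 7.95% in replicate 2.

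The SOX2 peaks found on members ranked low within their own lists. Their median percentile rank was 25.5 in SOX2 replicate 1 (n = 42 regions) and 33.1 in replicate 2 (n = 14). Over all SOX15 regions with a SOX2 peak it was 73.9 and 90.1, and for SOX2 peaks at gene boundaries at large it was 38.3 and 48.8. The median SOX2 fold on members was 6.63 and 7.02, against 8.31 over all peaks of either list.

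**Figure D4:**
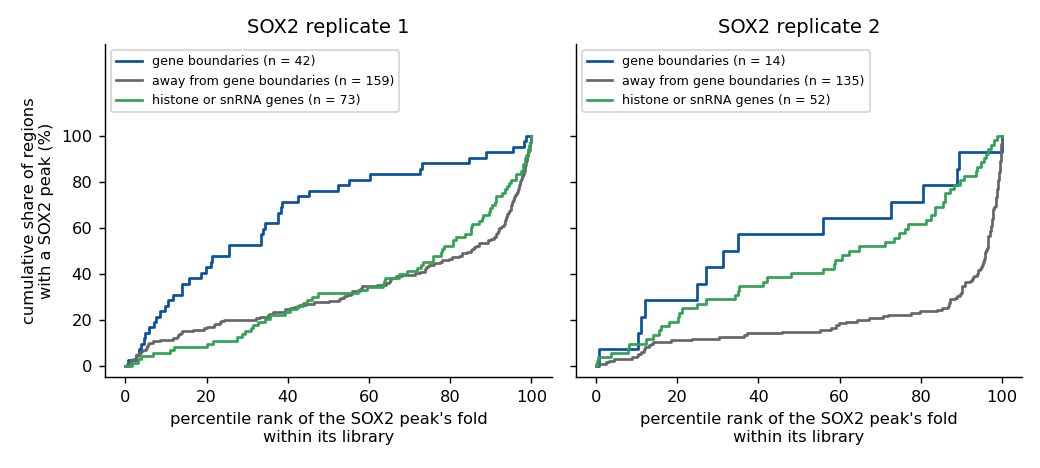
Cumulative share of the SOX15 regions with a SOX2 peak (%) against the percentile rank of that peak's fold within its SOX2 list, 1 panel per SOX2 library and 1 line per class of region. Gene-boundary members, the leftmost line over most of each panel, have medians of 25.5 and 33.1 in SOX2 replicates 1 and 2, and regions away from boundaries have 85.2 and 96.0.

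A few members broke that pattern. Ifitm2, an interferon-induced transmembrane protein gene, had a SOX15 peak in replicate 3 alone (fold 10.2, chr7:140959447-140959767) and SOX2 folds of 31.5 and 64.5. Dido1, a gene for a chromatin reader, had SOX15 folds of 4.13 and 5.08 in replicates 1 and 2 and SOX2 folds of 16.4 and 17.2. Ptma, which encodes prothymosin alpha, had 7.11 for SOX15 in replicate 3 alone and 14.3 and 16.8 for SOX2. With Tmem107 and Polr2a (22.8 and 8.94 for SOX2), these had the highest mean SOX2 ranks among members called in both SOX2 libraries.

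Other members had SOX15 peaks in 3 libraries and no SOX2 peak. Besides Ier2, Taf1d and Zfp513 they were Bag6, which encodes a chaperone of protein quality control (5.03, 6.35 and 6.15), Klhl26 (4.54, 5.66 and 6.0), B3galt4 (3.74, 4.84 and 7.22) and Hnrnpu (5.49, 6.28 and 4.47). Apart from Ier2 and Zfp513 in replicate 2, their folds lay between 3.74 and 7.22. At Gtf2a1, which encodes a subunit of the general factor TFIIA, the SOX15 folds were 10.7 and 6.76 in replicates 2 and 3, with no SOX2 peak.

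Genes of the translation machinery recurred among the members. Of 76 cytosolic ribosomal protein genes, 15 (19.7%) had a member within 1 kb of a boundary, beside 0.911% of all 21627 protein-coding genes. Rpl3 (9.95, 4.98 and 5.63), Rpl36 (7.99, 6.85 and 8.46, the region nearest to Lonp1) and Rps18 (3.74, 4.84 and 7.22, the region nearest to B3galt4) were called in 3 SOX15 libraries. Rpl31 had 2 members beyond its 3′ end, 1 called in replicates 2 and 3 (3.58 and 7.36) and the other in replicates 1 and 2 (4.87 and 4.54). The other 11 genes had no member called in more than 1 library. Among these 15 genes, 5 had a SOX2 peak on the member and 0 had it in both SOX2 libraries. Of 37 translation factor genes 5 (13.5%) had a member. Eif4a2, a gene for an RNA helicase of initiation, had SOX15 folds of 8.62, 4.89 and 13.0 and a SOX2 fold of 11.2 in replicate 1 beyond its 3′ end. A separate member inside its start had 4.88 and 5.86 in SOX15 replicates 2 and 3 and 7.19 and 5.52 for SOX2. Eef1a1, which encodes the elongation factor that delivers aminoacyl-tRNA, had 4.94 and 9.57 in SOX15 replicates 2 and 3 and 7.19 and 5.61 for SOX2. Eif4a1 had 4.96 and 6.51 in the same SOX15 libraries, and the Dapk3 region, 393 bp from Eef2, had 6.61 and 10.5 in replicates 1 and 3.

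Splicing factors and other abundantly expressed gene families followed. Among 35 hnRNP and SR genes, whose proteins package and splice pre-mRNA, 6 (17.1%) had a member. Hnrnpu had it in 3 libraries, Srsf7 (5.78 and 8.20 in replicates 2 and 3) and Hnrnpa3 (6.35 and 4.80 in replicates 1 and 2) in 2, and Srsf2 in 1 (6.07, replicate 2). Chaperones had 3 of 27 (11.1%), each called in 1 library, with 6.75 at Hspa8 (replicate 2), 5.75 at Hsp90ab1 and 3.58 at Ppia (both replicate 3). The Slc35b2 region, called in 3 libraries, stopped at base 45567776 of chromosome 17, next to Hsp90ab1 (45567778-45573261). It does not count for Hsp90ab1 because its summit lay over 1 kb from that gene. Cytoskeletal genes had 2 of 19 (10.5%), Actb (7.28) and Tmsb10 (6.26), both in replicate 3. Glycolysis had 1 of 14, Gapdh, whose nearest region (named Iffo1 above) had 6.74, 13.1 and 10.3, and which had another member in replicate 2 alone (6.75).

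Among transcription genes, RNA polymerase II and its general factors had 3 of 45 (6.67%), Polr2a, Gtf2a1 and Hexim1, the last encoding an inhibitor of the elongation kinase P-TEFb (6.31 in replicate 1 alone, SOX2 6.63 in replicate 1). RNA polymerase III and its factors had 1 of 27 (3.70%), Snapc5, which encodes a subunit of the complex that drives snRNA genes (3.79, replicate 3). Immediate early and MYC genes had 1 of 18, Ier2, which besides the region described above had a member called in replicate 3 alone (8.64). Chromatin and cohesin genes had 0 of 26.

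Naive and core pluripotency genes had 5 of 24 (20.8%), a share with the interval 9.24 to 40.5. Tfcp2l1, a naive pluripotency factor, was called in replicates 2 and 3 (6.90 and 10.4) at a summit 99 bp inside its start, with a SOX2 fold of 7.22 in replicate 1. The rest were called in 1 SOX15 library each, with 5.26 at Nanog, 4.56 at Zfp42 and 4.16 at Trim28, all in replicate 3, and 3.28 at Klf2 in replicate 2. Their percentile ranks within those lists were low, at 22.9, 9.50, 5.72 and 8.48 in the same order. The Trim28 region lay 829 bp from Trim28 and was nearer to Chmp2a (145 bp). SOX2 peaks overlapped the Zfp42 and Klf2 members in replicate 1 alone (6.04 and 5.37). Taking only members called in at least 2 libraries, the background over all genes was 0.282%, and 1 of the 24 pluripotency genes and 4 each of the ribosomal protein and translation factor genes had one. The lists were chosen with earlier results of these data known, and ChIP peaks say nothing of expression, which was not analysed here.

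**Figure D5:**
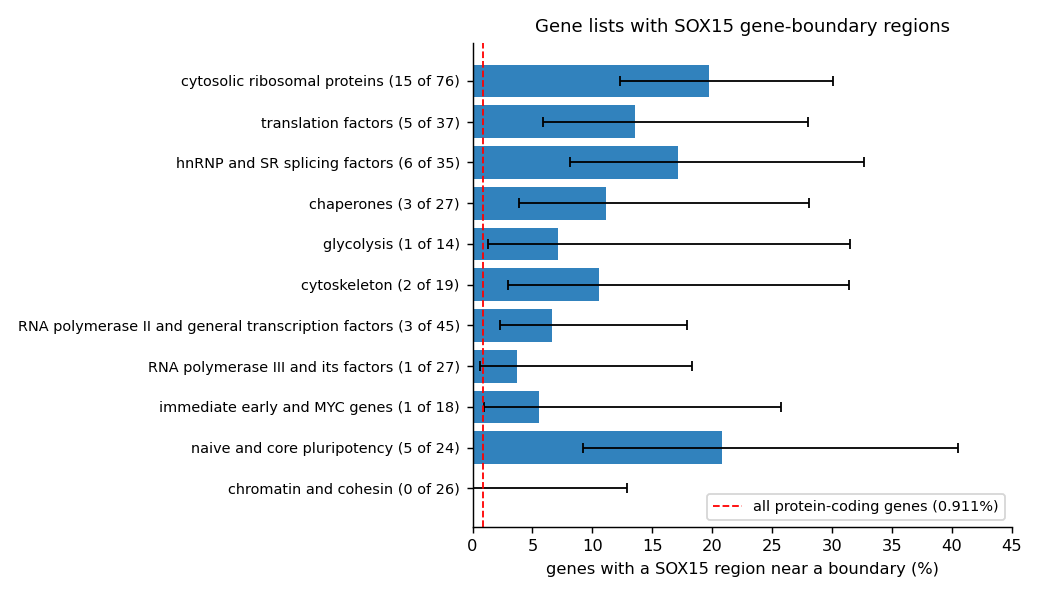
Percentage of the genes in each of the 11 lists that have a SOX15 member within 1 kb of a boundary; error bars are 95% Wilson intervals over genes, and the line is the share over all protein-coding genes (0.911%). Pluripotency (20.8%) and ribosomal protein genes (19.7%) have the highest shares, and chromatin and cohesin genes have 0. Members called in 1 SOX15 library are included. With members called in at least 2, the counts are 1 of 24 pluripotency, 4 of 76 ribosomal protein, 4 of 37 translation factor and 3 of 35 splicing factor genes.

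Small RNA genes lay near some of the members with the highest folds. A snoRNA gene was within 1 kb of 12 members (6.82%), against 1.76% of all SOX15 regions and 8 of 257 SOX2 regions at boundaries (3.11%). They included Snord118 at Tmem107, Snord13 at Tti2, Snord43 at Rpl3, Snord104 at Tex2, Snord2 at Eif4a2, Snord65 and Snord49a at Lrrc75a, and Snord42a at Rpl23a. Box C/D RNAs mostly guide ribose methylation of ribosomal RNA and are often encoded in introns of genes for the translation machinery. Of the protein-coding genes just listed, Rpl3, Eif4a2 and Rpl23a belong to that machinery. A peak in at least 1 SOX2 library overlapped 7 of these 12 members (58.3%, against 24.4% of all members and 29.6% of all SOX15 regions), and 3 of the 12 had it in both. A microRNA gene was within 1 kb of 5 members (2.84%, against 0.724%). Long noncoding RNA genes were near 20 members (11.4%, against 11.9%), and tRNA genes near 0 (against 0.207%).

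At the miR-290 cluster, whose products are printed above, 3 separate members lay within 1 kb of the 3′ end of Nlrp12. The first (chr7:3217721-3218418) had SOX15 folds of 10.1 and 4.98 in replicates 1 and 2. The second, with its summit 7 bp from Mir291a and 182 bp from Mir292, had 5.25 in replicate 2 alone, and the third, summit 43 bp from Mir291b, had 5.36 in replicate 3 alone. None carried a SOX2 peak. The Mcm7 member (chr5:138165296-138165769) had its summit within Mir93, with a fold of 6.13 in replicate 3 alone. These loci and the snoRNA hosts were named after their values were seen.

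Promoter windows with their start within 1 kb of a member summit were rich in GC. The 78 windows, of 69 genes, had a median GC content of 63.3% and a median of 24.5 CpG, against 56.7% and 13 over 21019 promoters. The GC box GGGCGG, bound by SP-family factors, was in 74.4% of them, against 46.6% of all promoters. The cyclic AMP response element TGACGTCA was in 8.97% (against 2.26%), the NRF1 motif GCATGCGC in 8.97% (against 3.54%), the ETS motif CCGGAAG in 17.9% (against 11.7%), the E box CACGTG in 12.8% (against 7.91%) and the YY1 motif AAGATGGCG in 3.85% (against 1.84%). The SOX motifs as a group were at nearly the same share in both sets. Any of the 3 was in 30.8%, against 30% of all promoters. ACAAAG was in 23.1% (against 16.9%), ACAATG in 6.41% (against 10.5%) and ACAATA in 5.13% (against 7.52%). The interval of each of these 3 shares also included the share over all promoters. The octamer ATGCAAAT, bound by OCT4, was in 0 of the 78 (against 1.68%). CCAAT was in 43.6% (against 38.5%) and TATAAA in 11.5% (against 12.7%). Both strands were searched, some of these words can overlap, and a match is not a bound site. A window need not hold the SOX15 summit, since 20 members had theirs inside one. The compared promoters were not matched for GC content.

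The members called in a single SOX15 library with the highest rank complete the picture of how they vary. In replicate 1 alone they included Flot1 (7.57) and Hexim1 (6.31). In replicate 2 alone they were Wnt8a (8.32) on chromosome 18, 2310039H08Rik (8.16) and Mtif2 (7.82), the last beside Rps27a. In replicate 3 alone they were Rps9 (10.5), Ifitm2 (10.2) and Znfx1 (9.94), the last beside the snoRNA host Zfas1. Their folds equal or exceed several of those of members called in 3 libraries. As a check of the labelled cells of the SOX2 libraries, peaks of both lay within 50 kb of all 10 pluripotency genes examined. The SOX15 libraries were not checked in this way, and no share over all genes is given beside this count.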

How the data were processed

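Peak lists of 5 ChIP-seq libraries (3 SOX15, 2 SOX2) were used. Per the submitters' processing notes, Bowtie2, MACS2 and deepTools were used with mm10. Not given in the sources used here are versions, settings and the control of each call. Deposited lists were made per library and give each peak's fold enrichment (a ratio), −log10 p and −log10 q, and the authors' score, which was 10 times the −log10 q in every peak. The folds and q are the authors' own and were used to describe, rank or filter peaks within a list.

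SOX15 peaks sharing 1 bp were merged, and a region's summit was that of the peak with the highest percentile rank of fold. Gene boundaries came from RefSeq protein-coding genes, with strand from the promoter table. A SOX2 peak counted where it shared at least 1 bp with a region. Intervals are Wilson at 95%. Libraries were compared with exact two-sided permutation tests in the position of their boundary peaks relative to starts and 3′ ends. Shares of peaks at boundaries, or at boundaries of at least 2 genes, are given without a test, since the rule used this distance. The membership rule and the merging of peaks were checked on simulated peaks. Software was scipy 1.17.1, pandas 2.3.3, numpy 2.4.6 and matplotlib 3.10.9 under Python 3.11.15.

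Regions were named by the gene with the nearest boundary and ordered by number of SOX15 libraries, then mean rank. Named were the first 15, the first 8 without a SOX2 peak, the 5 with the highest SOX2 rank among those in both SOX2 libraries, up to 4 of each gene list, the first 3 of those called in each SOX15 library alone, and the 3 nearest inside and outside the distance limit. Loci at small RNA genes and genes with several members were added after their values were seen. The members and the 11 gene lists were chosen with earlier results of these data known. Alternatives changed the distance limit, q minimum, summit, overlap, snoRNA genes, motif set and each replicate. Sequence is not shown for members on chromosome 18. An item that the naming rule selects is not reported here.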

Additional observations from a re-analysis of the deposited data

How the results depend on the processing

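The number of members depended on the distance limit and on the libraries: 176 at 1 kb, 113 at 500 bp and 250 at 2 kb, and 115 to 172 when 1 SOX15 library was left out, the lowest without replicate 2. The share of members with a SOX2 peak, 24.4%, was 23.3% to 31.3% when 1 SOX15 library was left out, the highest without replicate 2. It was 7.95% without SOX2 replicate 1 and 23.9% without SOX2 replicate 2, so it rests on SOX2 replicate 1. The 42 list genes with a member were 27 to 39 when 1 SOX15 library was left out, the lowest without replicate 3. The difference in the share of peaks at boundaries was 9.83 to 19.2 percentage points over the distance limits and 12.3 to 15.1 without 1 library, higher for SOX15 in each, as a description, since the rule used this distance. The mean of the 2 SOX2 ranks, 29.3, ranged from 27.3 to 33.3, and the start share from 41.4% to 55.1%. SOX motifs were in 22.7% of the windows of members called in at least 2 libraries. No paired analysis was possible because the values are shares of separate peak lists with 1 value per library, and the labels do not say that equal replicate numbers mark a shared culture. Peak lists hold no depth, which limits every statement on a missing peak.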
